A study of Mus musculus with 35 samples.

Results

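The genes described here are 10 members of the signalling system that brings monocytes into tissue, namely the CC chemokine ligands Ccl2, Ccl6, Ccl7, Ccl8, Ccl9 and Ccl11, the CXC chemokine ligands Cxcl1 and Cxcl12, the chemokine receptor Ccr2 and the macrophage growth factor Csf1. They were chosen by name and are 10 of the 55421 genes in the count table. Their levels in interscapular brown adipose tissue (iBAT) changed in distinct sequences over 5 days of cold. Ccl6 and Ccl9 were already 3.98-fold and 3.28-fold higher after 6 hours and stayed higher at every later time. Cxcl12 was higher from 1 day on, and its call as lower after 6 hours was lost in 7 of 10 fits that left out 1 mouse. Ackr3, the receptor that clears Cxcl12, was highest at 6 hours. Ccl2, Ccl8, Ccr2 and Csf1 were highest on average between 2 and 3 days. Among mice after 2 days, the highest level of Ccl2 was 61.3-fold the lowest, which rested on 2 reads. The highest was 7.07-fold the lowest for Ccr2 (1.95-fold in controls), 8.88-fold for Ccl6 (3.49-fold) and 7.0-fold for Ccl9 (2.69-fold). Ccl8 spread less, at 2.22-fold beside 5.34-fold in controls, where the lowest mouse had 3 reads, and Csf1 spread 2.76-fold beside 1.66-fold.

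Whole iBAT was collected from C57BL/6J male mice aged 9 to 10 weeks, and each mouse gave its own RNA library. Of the 35 mice, 5 were room temperature controls. The others were exposed to cold in 6 groups of 5, for 6 hours in the first group and for 1 to 5 whole days in the rest. Cold-exposed mice were kept singly at 6 °C and had no nesting material, whereas controls remained in the colony at 24 °C, so that temperature and housing changed together and cannot be told apart. The tissue was not sorted, so each value is a sum over adipocytes, vessels, nerves, stromal cells and leukocytes, and fewer cells of a type and less RNA per cell cannot be told apart.

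Chemokines are small secreted proteins that bind G protein-coupled receptors on leukocytes and steer their movement. Ccl2 and Ccl7 are ligands of Ccr2, the receptor that classical monocytes need to leave the bone marrow and enter tissue. Once there, monocytes become macrophages under the control of Csf1 and its receptor Csf1r. In brown fat, noradrenaline released in the cold drives heat production, and after some days new adipocytes form.

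QuantSeq libraries sample the tail of each polyadenylated transcript, so counts do not scale with transcript length, and levels are compared here between mice and not between genes. Libraries held 3846016 to 6047247 counts, and 1 read is worth 0.165 to 0.26 CPM, the count scaled to 1000000 per library, before TMM scaling. Mitochondrial genes took 40.2% of all counts. CPM values below were scaled by TMM, a normalization that assumes most genes do not change. Each cold duration was tested against the same 5 controls with edgeR's quasi-likelihood test, and a gene is called when its Benjamini-Hochberg adjusted p over all genes tested is below 0.05. Because they share their controls, the 6 comparisons are not independent of each other.

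After 6 hours, 6 of the 10 members had enough reads to be tested, and 2 were called higher and 1 lower, where 42.5% of all 10593 genes tested were called (21.5% higher and 21.0% lower). After 1 day, 3 of 6 were higher and 1 was lower, against 36.7% of all genes called (18.9% higher and 17.8% lower). After 2 days, 5 of 7 were higher and 0 lower (31.2% of all genes called, 16.4% higher and 14.7% lower). The count peaked after 3 days, when 7 of the 8 tested were higher and 0 lower, where 33.8% of all genes were called (18.3% higher and 15.5% lower). After 4 days, 5 of 7 were higher and 0 lower (38.0% of all genes called, 19.4% higher and 18.6% lower), and after 5 days 4 of 7 were higher and 1 was lower (38.8% called, 20.2% higher and 18.6% lower). The median log2 fold change of the tested members was 0.29, 0.50, 0.95, 1.90, 0.96 and 0.53 at the successive times, while the median over all genes lay between -0.027 and -0.007. Between 2 and 5 days this count includes members that reached the filter on low counts only because they were high in the cold (Ccl8 from 2 days, Ccl2 at 3 days), so it cannot be read as support for a rise of the group. In one fit over all 7 groups, 9 of the 10 members varied, Cxcl1 having too few reads to be tested, and 60.4% of all 12077 genes did. Ccl2, Ccl7 and Ccl8 reached the filter of that fit only through cold-exposed mice, so this count is no support for a rise either. Scaling by library size alone lowered the median of all genes to between -0.25 and -0.146 in the comparisons with controls, and the share of calls that were higher went from between 50.6% and 54.2% to between 25.1% and 35.5%. Changes of members are therefore given relative to the bulk of genes.

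**Figure D1:**
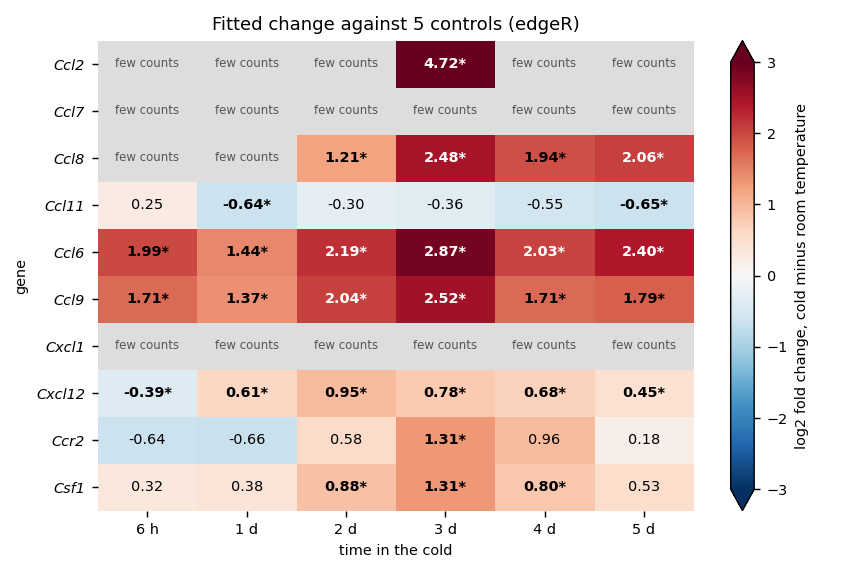
Fitted log2 fold changes (cold minus room temperature, 5 against 5 mice) of the 10 genes in rows at the 6 cold durations in columns, red for higher and blue for lower, with an asterisk and bold print where the adjusted p of edgeR was below 0.05. Grey cells had too few counts to be tested. Ccl6 and Ccl9 were called at all 6 durations, and Cxcl12 changed sign between 6 hours (-0.39) and 1 day (0.61). The 6 hour call of Cxcl12 was lost in 7 of 10 fits that left out 1 mouse. The 3 day column holds 7 calls, among them Ccl2 and Ccl8, which passed the filter on low counts only through cold-exposed mice.

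Ccl2 and Ccl7 encode the monocyte chemoattractant proteins that engage Ccr2, and their genes are neighbours on chromosome 11 (GRCm38, 82035571 to 82037453 for Ccl2 and 82045712 to 82047525 for Ccl7, both on the plus strand). In controls Ccl2 was close to absent, with 0, 0, 3, 3 and 5 reads in the 5 mice. A count of 0 allows up to 3 counts, counting error only. After 6 hours the counts were 0, 2, 3, 0 and 5, the same range as in controls. After 1 day they were 2, 4, 2, 10 and 73, so that 1 mouse stood far above the rest. After 2 days the mice had 208, 75, 21, 2 and 13 reads, and after 3 days 91, 12, 117, 45 and 14. The 3 day group was the only cold group in which all 5 mice exceeded every control. Counts of 65, 43, 32, 0 and 6 followed after 4 days, and of 30, 7, 3, 16 and 67 after 5 days. Both of these groups again held mice at the level of controls.

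Tested after 3 days, Ccl2 was 26.3-fold higher (11.4 ± 9.19 CPM against 0.408 ± 0.400, SD, n = 5), a log2 fold change of 4.72 ± 0.72 (SE) with an edgeR adjusted p of 0.0001. The gene passed the filter there only through its cold-exposed mice. At the other durations it was tested with an exact permutation test of log2 CPM, two-sided over all splits of 5 against 5 mice, which cannot go below p = 0.00794. This exact test gave p = 0.0238 after 2 days and p = 0.0238 after 5 days, both 0.0476 when adjusted over the 6 durations, and 0.0714 (0.107 adjusted) after 4 days and 0.119 (0.143 adjusted) after 1 day. Both calls were narrow. That of 2 days was lost without any one of controls 1 to 4 (adjusted p 0.0635 to 0.0794), and that of 5 days without any one of controls 1 to 4 or cold-exposed mouse 5 (0.0635 to 0.0794), while that of 4 days appeared without cold-exposed mouse 4 (0.0238). One edgeR fit of all 7 groups, which lends Ccl2 enough reads to be tested throughout, gave log2 fold changes of 0.10, 3.21, 4.75, 4.70, 3.57 and 3.53, with an adjusted p of 0.972 at 6 hours and of 0.0423, 0.00103, 0.00119, 0.017 and 0.019 at the later times. There too Ccl2 passed the filter only through cold-exposed mice, so these values cannot be read as support for a rise.

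Ccl7 moved in the same mice at lower counts. Controls had 3, 0, 1, 3 and 2 reads, mice after 6 hours 0, 1, 1, 1 and 2, and mice after 1 day 0, 0, 0, 3 and 27. After 2 days there were 125, 31, 2, 1 and 7 reads, after 3 days 33, 1, 75, 32 and 9, after 4 days 31, 29, 9, 3 and 3, and after 5 days 15, 7, 0, 14 and 31. In each of the groups from 2 to 5 days, 3 or 4 of the 5 mice were above every control and the others were not. No exact permutation test passed after adjustment over the 6 durations (the smallest were p = 0.0159 after 4 days, 0.0952 adjusted, and p = 0.0397 after 3 days, 0.111 adjusted). Without 1 mouse that was at the control level it passed at 3, 4 and 5 days (without mouse 2, 5 and 3, respectively, adjusted p = 0.0476 in each case, exact test). In the edgeR fit of all groups Ccl7 was higher by 4.06 on the log2 scale after 2 days (adjusted p = 0.00408) and by 4.06 after 3 days (0.00422). Ccl7 passed the filter on low counts in that fit only through cold-exposed mice, so these values cannot be read as support for a rise.

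**Figure D2:**
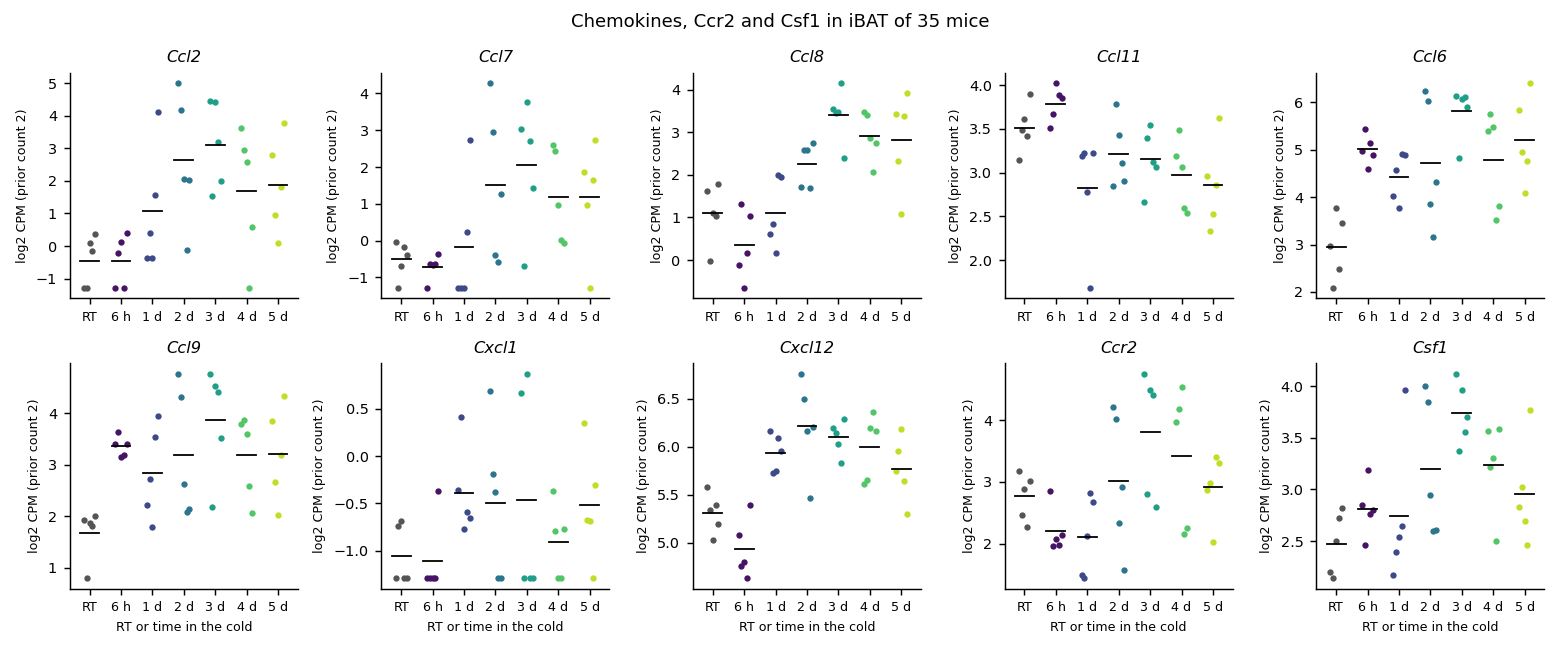
Level of each of the 10 genes in each of the 35 mice, as log2 CPM with a prior count of 2, for room temperature (RT) and the 6 cold durations. Points are mice and black lines are group means, and the vertical scale differs between panels. Ccl6 and Ccl9 lie above all controls in each mouse after 6 hours, whereas Ccl2 and Ccl7 spread from the control level upwards from 2 days on. Ccr2 has mice both above and below all controls after 2, 4 and 5 days. The lowest row of points for Ccl2, Ccl7 and Cxcl1 marks mice with a count of 0.

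Ccl8 (chromosome 11, 82115185 to 82116799, plus strand) encodes a further ligand of the same cluster, and Ccl11 (82057823 to 82062955, plus strand) encodes eotaxin, which attracts eosinophils through Ccr3. Ccl8 was called higher from 2 days on and Ccl11 lower at 1 and 5 days. In these comparisons Ccl8 passed the filter on low counts only through its cold-exposed mice, so its calls cannot be read as support for a rise. Ccl8 stood at 2.67, 0.572, 1.75, 1.63 and 3.05 CPM in controls and reached 11.3, 10.5, 10.7, 17.4 and 4.88 CPM after 3 days. All 5 of the latter exceeded every control, a 5.60-fold difference (log2 2.48 ± 0.35, adjusted p = 5.7e-05, edgeR). It stayed high in most mice, with 10.7, 10.1, 6.97, 3.83 and 6.33 CPM after 4 days (3.84-fold, adjusted p = 0.00044) and 10.4, 4.63, 1.72, 9.99 and 14.7 CPM after 5 days (4.17-fold, adjusted p = 0.00171). After 2 days it was 2.32-fold higher (log2 1.21 ± 0.38, adjusted p = 0.0231), a call that was lost without control 4 or without cold-exposed mouse 2, 3 or 5 (adjusted p 0.0539 to 0.0593). After 6 hours and 1 day it had too few reads for edgeR, at 1 to 9 and 4 to 15 counts beside 3 to 17 in controls, and the exact permutation test gave p = 0.159 and p = 0.976. From 1 to 3 days the rise was 5.64-fold with no overlap (log2 2.50 ± 0.39, adjusted p = 0.00056), a comparison in which 3 of 9 tested members were called higher and 0 lower and 12.1% of all genes were called (6.97% higher and 5.11% lower). Ccl2, Ccl7 and Ccl8 could not be tested between 6 hours and 1 day and reached the filter on low counts here through the 3 day mice, so that neither this count nor the call of Ccl8 can be read as support for a rise.

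Ccl11 was lower in some cold groups. Controls had 8.39, 10.9, 11.8, 10.3 and 14.6 CPM, and mice after 6 hours had 11, 12.3, 15.9, 14.4 and 14.0 CPM, a difference of 0.25 on the log2 scale that was not called. After 1 day the values were 8.72, 9.00, 6.47, 2.81 and 8.98 CPM, below all 5 mice of the 6 hour group. This step from 6 hours to 1 day was a fall by 0.90 on the log2 scale (SE 0.23, adjusted p = 0.0120), where 6 members were tested, 1 was called higher and 1 lower, and 16.9% of all genes were called (9.19% higher and 7.75% lower). Against controls, Ccl11 fell by 0.64 after 1 day (adjusted p = 0.0477) and by 0.65 after 5 days (adjusted p = 0.0355). Each of these calls rested on few mice. The call of 1 day was lost in 7 of the 10 fits that left out 1 mouse (all but those without control 1 or cold-exposed mouse 2 or 5, adjusted p 0.0521 to 0.127) and that of 5 days in 8 of 10 (all but those without control 1 or cold-exposed mouse 5, adjusted p 0.0505 to 0.105). Ccr3, its receptor, had no read in any control and at most 4 in any mouse.

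Ccl6 and Ccl9 are CC chemokines found in rodents and made by macrophages and other myeloid cells. Their genes lie side by side on the minus strand of chromosome 11, at 83587882 to 83593087 and 83572919 to 83578636, with starts 14451 bases apart. They were the members whose rise came first. Because they are neighbours that rose together, the 100 bases before each start are shown (RefSeq, GRCm38.p6, chr11:83593088-83593187 for Ccl6 and chr11:83578637-83578736 for Ccl9, minus strand, 5′ to 3′), with capitals for runs of at least 10 bases that both 250-base upstream windows contain.
Ccl6: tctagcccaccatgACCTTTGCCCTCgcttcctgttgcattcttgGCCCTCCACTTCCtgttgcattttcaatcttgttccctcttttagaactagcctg
Ccl9: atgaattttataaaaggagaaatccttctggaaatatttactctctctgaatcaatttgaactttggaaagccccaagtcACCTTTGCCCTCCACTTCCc
The longest such run was 13 bases in the windows of Ccl6 and Ccl9, and 6 to 9 bases in the other 20 pairs of the 7 members whose promoters were matched. The shared letters describe the windows and say nothing about which factor, if any, binds there.

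In controls Ccl6 measured 7.43, 3.81, 13.3, 5.22 and 10.6 CPM, and after 6 hours 31.0, 43.0, 23.9, 34.9 and 29.5 CPM. The groups did not overlap, and the log2 fold change was 1.99 ± 0.24 (adjusted p = 3.9e-06, edgeR). After 1 day the values were 15.8, 23.3, 13.3, 29.6 and 29.5 CPM (2.72-fold higher, adjusted p = 0.00101). At 2 days the mice separated, with 75.2 and 65.3 CPM in 2 of them and 14.0, 8.47 and 19.4 in the others, of which 1 lay within the control range (4.57-fold, adjusted p = 0.00437). After 3 days 4 mice lay between 59.3 and 70.1 CPM and the other was at 27.9 CPM, which gave the highest mean (58.7 ± 17.7 CPM, 7.30-fold, log2 2.87 ± 0.29, adjusted p = 1.7e-06). The values were 41.7, 53.2, 44.3, 11.1 and 13.7 CPM after 4 days (4.07-fold, adjusted p = 0.0009) and 56.6, 30.7, 16.6, 26.6 and 84.2 CPM after 5 days (5.28-fold, adjusted p = 7.1e-05). From 1 to 3 days Ccl6 was called higher (log2 1.43 ± 0.25, adjusted p = 0.00127). From 3 to 5 days 0 of the 9 tested members were called by edgeR and 0 of the 8 given an adjusted p by DESeq2, and 3 had an unadjusted p under 0.05 in each, while 1.92% of all genes were called by edgeR (1.02% higher and 0.892% lower). The tested members' median there was -0.74 on the log2 scale.

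Ccl9 followed the same course. Controls had 3.43, 1.33, 3.27, 3.10 and 3.59 CPM, and the 6 hour group had 10.2, 12.1, 8.49, 8.74 and 10.2 CPM with no overlap (log2 1.71 ± 0.24, adjusted p = 1.5e-05). Later groups again ranged widely, from 3.85 to 26.9 CPM after 2 days, 4.13 to 26.7 after 3 days, 3.8 to 14.3 after 4 days and 3.66 to 19.7 after 5 days. Even so, each of these 20 mice was above every control, and the fold change was 4.11, 5.74, 3.26 and 3.47 (adjusted p 0.00615, 0.00015, 0.00119 and 0.00118). After 1 day, when 1 mouse of 5 lay within the control range, the difference was 2.59-fold (adjusted p = 0.0123), and it missed the threshold in the fit of all groups (0.0512).

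Cxcl12 encodes the ligand that retains Cxcr4-bearing cells in the bone marrow and in tissue niches and is made largely by stromal and endothelial cells. It lies on chromosome 6 (117168535 to 117181367, plus strand). Its course differed from that of the CC ligands, with narrow groups and an early change of sign. Controls had 47.3, 40, 32.3, 41.6 and 36.5 CPM, and mice after 6 hours 33.4, 26.7, 27.5, 24.3 and 41.5 CPM, 3 of them below every control. This fall by 0.39 on the log2 scale was called (adjusted p = 0.0410), but the call was lost in 7 of the 10 fits that left out 1 mouse (all but those without control 3, control 5 or cold-exposed mouse 5, adjusted p 0.0524 to 0.117). After 1 day all mice were above all controls, at 70.9, 52.8, 53.6, 67.6 and 61.9 CPM (1.53-fold, log2 0.61 ± 0.13, adjusted p = 0.00112). From 6 hours to 1 day Cxcl12 thus rose 1.99-fold with no overlap (log2 0.99 ± 0.15, adjusted p = 0.00017, edgeR).

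Cxcl12 then remained above controls. It reached 108, 89.9, 71.1, 43.9 and 73.3 CPM after 2 days (1.93-fold, adjusted p = 0.00108), 72.4, 70.0, 65.1, 56.6 and 77.8 after 3 days (1.71-fold, adjusted p = 0.00012) and 48.6, 49.8, 72.5, 81.9 and 71.0 after 4 days (1.61-fold, adjusted p = 0.0016). After 5 days it had 53.6, 61.6, 72.1, 49.4 and 39 CPM (1.37-fold, adjusted p = 0.0225), and the call was lost without control 3 (adjusted p = 0.0582) or cold-exposed mouse 3 (0.0720). In order of group means the levels ran from 30.7 CPM at 6 hours through 39.5 in controls, 55.1 at 5 days, 61.4 at 1 day, 64.8 at 4 days and 68.4 at 3 days to 77.2 at 2 days. The neighbours from 5 days upwards differed by less than the larger of their SDs, which ran from 8.01 to 23.7 CPM.

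Ackr3, which binds Cxcl12 and internalizes it without G protein signalling, was, besides Ccr2, the only chemokine receptor or scavenger with enough reads to be tested at 6 hours. In controls it measured 58.5, 26.9, 22.3, 18.6 and 17.8 CPM, the first of these apart from the other 4. After 6 hours it measured 144, 161, 159, 164 and 131 CPM, a 5.17-fold difference with no overlap (log2 2.37 ± 0.24, adjusted p = 5.2e-07, edgeR), which ranged from 2.24 to 2.80 on the log2 scale when single mice were left out. After 1 day it was down to 65.5, 120, 113, 74.2 and 88.6 CPM, lower than at 6 hours by 0.72 on the log2 scale (SE 0.14, adjusted p = 0.00237). It then levelled at group means of 69.3 to 80.8 CPM, still 2.39-fold to 2.78-fold above controls and called at each of the remaining durations. At 6 hours Ackr3 was therefore highest while Cxcl12 was lowest, a statement about group means that was not tested as a relation. Cxcr4, the signalling receptor of Cxcl12, had between 0 and 20 reads per mouse and was too low to test.

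**Figure D3:**
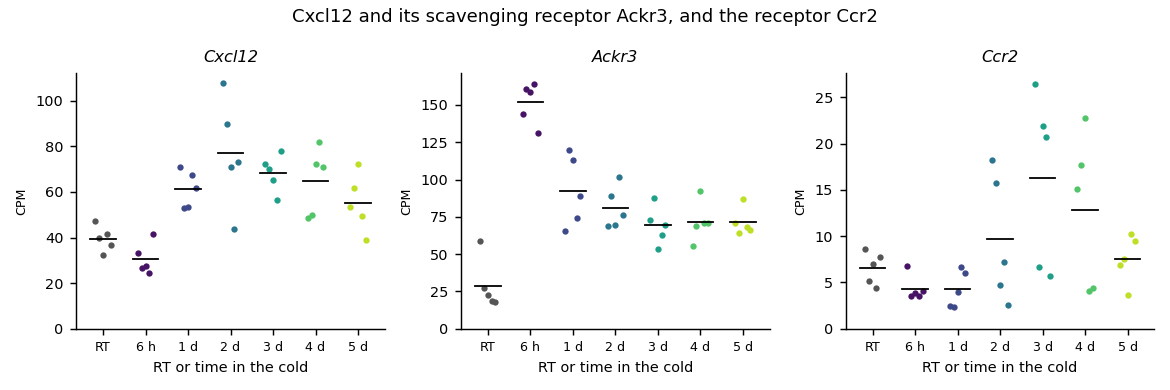
CPM of Cxcl12, Ackr3 and Ccr2 in each of the 35 mice, for room temperature (RT) and the 6 cold durations, with group means as black lines and axes that start at 0. Ackr3 has its highest mean (152 CPM) after 6 hours, when Cxcl12 has its lowest (30.7 CPM), and Ccr2 splits into high and low mice after 3 and 4 days.

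Cxcl1 (chromosome 5, 90891241 to 90893115, plus strand) encodes a neutrophil attractant that signals through Cxcr2. It was close to the limit of detection at every time. Controls had 0, 1, 1, 0 and 0 reads, and the highest count of any mouse was 8, reached by 1 mouse after 2 days and by 1 after 3 days. Exact permutation tests gave p = 0.0238 after 1 day (0.143 adjusted), when the counts were 2, 4, 1, 1 and 1, and p between 0.103 and 1.0 at the other durations. No change was detectable at this depth. Cxcr2 had at most 1 read per mouse.

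Ccr2 (chromosome 9, 124101950 to 124113557, plus strand) marks classical monocytes and cells that have recently derived from them. It was first called higher after 3 days. Controls had 8.58, 5.15, 6.99, 4.4 and 7.72 CPM, mice after 6 hours 6.78, 3.48, 3.8, 3.54 and 4.01, and mice after 1 day 2.41, 2.31, 3.96, 6.63 and 5.98. These differences of -0.64 and -0.66 on the log2 scale were not called (adjusted p = 0.0529 and 0.0987), although 4 of 5 and 3 of 5 mice were below every control. Leaving out control 2, control 4 or cold-exposed mouse 1 brought that of 6 hours past the threshold (0.0161 to 0.0432), as leaving out mouse 4 did at 1 day (0.0389).

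After 3 days Ccr2 measured 26.4, 6.61, 21.9, 20.7 and 5.65 CPM, with 3 mice far above the controls and the others within their range. The difference was 2.48-fold (log2 1.31 ± 0.36, adjusted p = 0.00987, edgeR), and against 1 day it was 3.94-fold (log2 1.98 ± 0.41, adjusted p = 0.00442). After 2 days the mice had 18.2, 15.7, 4.66, 7.18 and 2.57 CPM and after 4 days 15.1, 17.7, 22.8, 4.04 and 4.34 CPM. These groups also held mice on both sides of the controls and were not called (adjusted p = 0.290 and 0.0652), and that of 4 days passed without mouse 4 or mouse 5 (0.0123 and 0.0118). After 5 days, at 6.91, 7.50, 3.66, 10.2 and 9.45 CPM, the mean was 1.14-fold that of controls (adjusted p = 0.608). The interval given by its SE of 0.26 on the log2 scale leaves room for a modest change in either direction. Scaled by library size alone, the 5 day difference changed sign (-0.05).

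Ccr1, a receptor of Ccl6 and Ccl9, had at most 16 reads in any mouse. The scavengers Ackr1 and Ackr2 had at most 17 and 4. These 3 were too low to test in every comparison.

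Csf1 encodes the cytokine on which macrophages depend for survival and division (chromosome 3, 107741048 to 107760469, minus strand). Its highest mean came after 3 days. Controls had 4.19, 4.00, 5.24, 6.19 and 6.65 CPM. After 1 day 4 mice had 4.08 to 5.87 CPM and the fifth mouse 15.2 CPM, the mouse that also had the 73 reads of Ccl2. After 2 days the values were 15.6, 14.0, 7.35, 5.64 and 5.71 CPM, called 1.84-fold higher (adjusted p = 0.0331) but lost in 6 of the 10 fits without 1 mouse (controls 1 to 4 and cold-exposed mice 1 and 2, adjusted p 0.0502 to 0.112). After 3 days all 5 mice were above every control, at 17.0, 9.92, 15.1, 11.4 and 12.6 CPM (2.48-fold, log2 1.31 ± 0.21, adjusted p = 0.00014, edgeR). After 4 days the values were 11.5, 8.93, 9.41, 5.25 and 11.6 CPM (1.74-fold, adjusted p = 0.0117), and after 5 days the difference of 1.44-fold was not called (adjusted p = 0.121).

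The receptor Csf1r, expressed by monocytes and macrophages in general, was not called at any duration, with group means between 9.95 and 15.4 CPM and a control mean of 12.4 ± 2.92 CPM. Its fitted log2 fold changes lay between -0.33 and 0.29 with SEs of 0.17 to 0.21. Il34, the other ligand of Csf1r, was lower at 1 day, when Csf1 was not called, at 3.53 ± 0.782 CPM against 7.67 ± 2.00 in controls with no overlap (log2 -1.13 ± 0.23, adjusted p = 0.00123, edgeR), and it was also called lower after 4 and 5 days. No read of Csf2 or Csf3, the other colony-stimulating factors, was counted in any mouse, which allows up to 3 counts per library.

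Of 29 further chemokine ligands, most were near zero and only 5 to 8 could be tested at a given duration. The numbers called higher and lower were 1 and 2 at 6 hours, 3 and 1 at 1 day, 2 and 1 at 2 days, 4 and 0 at 3 days, 3 and 0 at 4 days and 2 and 0 at 5 days. Of all genes tested, 16.4% to 21.5% were called higher and 14.7% to 21.0% lower at these durations. Among the ligands Cxcl14, which attracts macrophages, followed an early course of its own. It is made by brown adipocytes, and the paper reports it as selective for a subtype of stromal cells in this tissue. It stood at 9.40 ± 0.825 CPM in controls, 19.3 ± 3.01 after 6 hours and 32.1 ± 8.22 after 1 day (3.36-fold, log2 1.75 ± 0.17, adjusted p = 7.4e-07, edgeR), and came back to 10.8 ± 2.28 after 5 days (adjusted p = 0.458). Cxcl9, an interferon-gamma target that attracts T cells, fell from 23.3 ± 4.31 to 6.20 ± 2.11 CPM at 6 hours with no overlap (log2 -1.95 ± 0.20, adjusted p = 5.2e-07) and was at 33.5 ± 17.9 CPM after 3 days (adjusted p = 0.189 against controls). Pf4, made by platelets and by resident macrophages, rose to 31.1 ± 5.29 from 12.9 ± 4.13 CPM by 4 days (log2 1.26 ± 0.18, adjusted p = 3.8e-05). Cx3cl1 (fractalkine) and Cxcl13 were low but without overlap, Cx3cl1 after 4 days (6.77 ± 3.03 against 2.00 ± 0.637 CPM, adjusted p = 0.00104) and Cxcl13 after 3 days (4.30 ± 1.15 against 1.47 ± 1.03 CPM, adjusted p = 0.00644). Both passed the filter on low counts there only through cold-exposed mice, so these calls cannot be read as support for a rise.

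Receptors and scavengers other than Ccr2 numbered 22, of which 1 to 4 could be tested and Ackr3 was among those called at every duration. In the list of 13 genes of inflammatory signalling, 7 or 8 were tested, with at most 1 called higher and 2 lower at any duration. The shares of all genes beside these counts, and beside those of adhesion genes below, were 16.4% to 21.5% higher and 14.7% to 21.0% lower. Tnf, Il1b and Il6, the cytokines that commonly induce chemokines, had at most 5, 4 and 6 reads in any mouse. Il1rn, the secreted antagonist of interleukin 1, was highest after 3 days (6.88 ± 4.15 against 1.39 ± 0.789 CPM, log2 2.29 ± 0.46, adjusted p = 0.00114, edgeR). It passed the filter on low counts there only through cold-exposed mice, so this call cannot be read as support for a rise. At 6 hours Nfkbia, an inhibitor of NF-kB and also one of its targets, was 1.58-fold higher (adjusted p = 0.001) and Relb, a subunit of NF-kB, was lower by 1.55 on the log2 scale (adjusted p = 0.00112). Of 11 leukocyte adhesion genes, 4 to 7 were tested, and 1, 3, 2, 5, 4 and 0 were called higher and 0 lower at the 6 durations. They included Pecam1 at 6 hours (2.12-fold, adjusted p = 3.2e-06), Icam2 at 2 days (1.71-fold, adjusted p = 0.00282) and Vcam1, which monocytes bind as they cross the vessel wall, at 3 days (1.85-fold, adjusted p = 0.00326). Itgam, also called at 3 days, could be tested against controls at that duration alone. It thus reached the filter on low counts only through the 3 day mice, so the 3 day count cannot be read as support for a rise.

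Markers of the cells that could carry these transcripts moved on different schedules. At 6 hours, when Ccl6 and Ccl9 were already up, 0 of 6 tested macrophage markers were called by edgeR and 0 of the 7 given an adjusted p by DESeq2, with 1 at an unadjusted p under 0.05 in each, and the summed level of the 8-gene list ranged from 69.4 to 76.3 CPM beside 54.9 to 121 in controls. After 1 day it was 58.6 to 83.2 CPM with 0 of 6 called by edgeR and 0 of 7 by DESeq2, and with 0 at an unadjusted p under 0.05 in either. Of all genes, edgeR called 42.5% at 6 hours and 36.7% at 1 day. The 8-gene sum rose to 95.5 to 172 CPM after 3 days, with 3 of 7 called higher (Cd68 and C1qa among them), where 18.3% of all genes were. The 5 genes of recruited lipid-handling macrophages, a list taken from the cell types the study itself describes and so no independent evidence of direction, summed to 7.01 to 19.9 CPM in controls, 8.97 to 14.6 at 6 hours, 5.93 to 45.1 at 1 day, 11 to 382 at 2 days and 29.5 to 345 at 3 days. Of these genes 3 of 3 tested, among them Lgals3 and Gpnmb, were called higher after 3 days and after 5 days, where 18.3% and 20.2% of all genes were. The other, Mmp12, reached the filter on low counts there only through cold-exposed mice, so its calls cannot be read as support for a rise. The 6 resident macrophage genes were at 98.9 to 151 CPM after 3 days, against 55.5 to 98.0 in controls, with 4 of 6 called higher, where 18.3% of all genes were. Up to 2 days only 5 of them could be tested against controls. The sixth thus reached the filter on low counts through cold-exposed mice, and this count cannot be read as support for a rise.

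The 6 monocyte markers summed to 14.9 to 47.4 CPM after 3 days and 8.58 to 34.9 in controls, overlapping ranges. At a given duration 1 or 2 of them could be tested, of which Plac8 was called higher at 3 days and Fn1 lower at 5 days. Plac8 reached the filter on low counts only through the 3 day mice, so its call cannot be read as support for a rise. Neutrophil markers stayed between 0.182 and 5.90 CPM in all groups, with Ly6g at 0 in all 35 mice. Eosinophil markers stayed at 0.711 CPM or less, with Epx at 0 in all 35. Stromal markers, whose cells are a known source of Cxcl12 and Ccl11, fell as Ccl11 did at 1 day, with 4 of 7 called lower (Dpt and Dcn among them) and a sum of 313 to 381 CPM beside 398 to 541 in controls. The 4 endothelial markers, of which Kdr makes up most of the sum, came to 229 to 277 CPM in controls, 391 to 488 at 6 hours, when Ackr3 was highest, and 456 to 536 at 1 day. At 6 hours 2 of them were called higher and 1, Tek, lower, and at 1 day 3 were called higher and 0 lower. Of all genes, 21.5% were called higher and 21.0% lower at 6 hours, and 18.9% and 17.8% at 1 day. The part of these marker shifts in the levels of the chemokine genes was not tested.

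**Figure D4:**
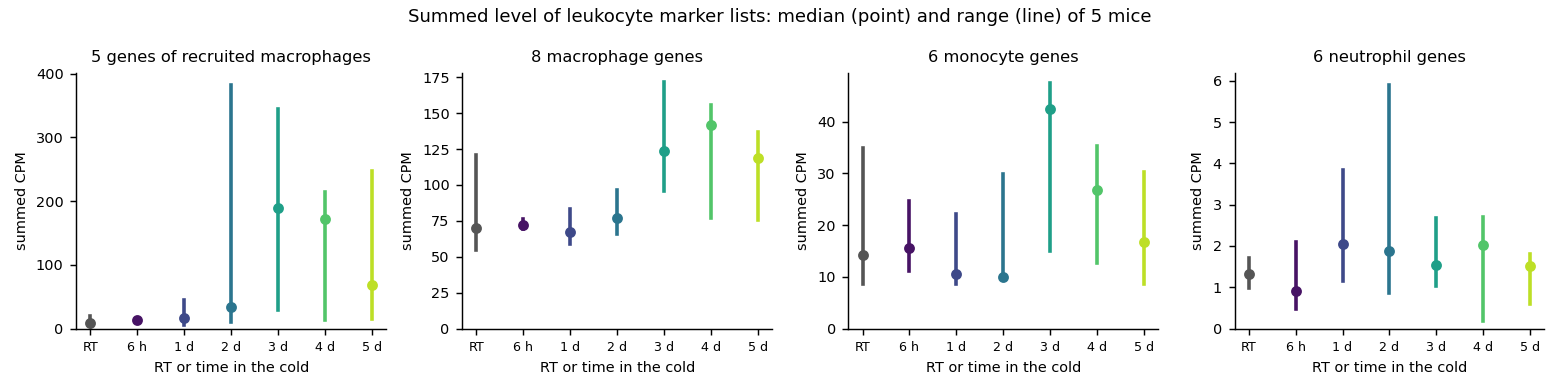
Summed CPM of 4 marker lists (recruited macrophages, macrophages, monocytes and neutrophils) at room temperature (RT) and the 6 cold durations. Points are medians and lines run from the lowest to the highest of 5 mice, with axes that start at 0. The macrophage sum at 6 hours (69.4 to 76.3 CPM) lies within the range of controls, and the recruited list spans 11 to 382 CPM at 2 days.

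Mice kept in the cold equally long were compared next, since the late groups split. Levels were taken as log2 CPM less the mean of the group, so that only differences among mice of 1 duration count, and each member was correlated with Lgals3, a gene of recruited macrophages, and with Top2a, a gene of dividing cells (35 mice, permutation of mice within groups, 100000 resamples, 20 pairs adjusted together). With Lgals3, Pearson's r was 0.94 for Ccl9, 0.93 for Ccl6, 0.92 for Ccl2, 0.90 for Ccl7, 0.79 for Ccr2, 0.68 for Csf1 and 0.54 for Ccl8 (adjusted permutation p 4e-05 for the first 4, whose unadjusted 1e-05 is the smallest the resamples can give, then 0.00037, 0.00082 and 0.00229). Spearman's rho was 0.95, 0.92, 0.93, 0.89, 0.82, 0.69 and 0.56. Leaving out the 2 mice most extreme in the member itself, chosen for each member, gave r of 0.92, 0.92, 0.92, 0.90, 0.79, 0.65 and 0.47. Cxcl12 and Ccl11 did not pass the threshold with Lgals3 (r = 0.01, adjusted permutation p = 0.978, and r = 0.26, adjusted p = 0.227). For Cxcl12 the value turned to -0.34 when the 2 mice of most extreme Cxcl12 were left out, and Ccl11 passed with library size only (r = 0.42, adjusted permutation p = 0.0382). Cxcl1 gave r = 0.53, from counts so sparse that the value is no finding.

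**Figure D5:**
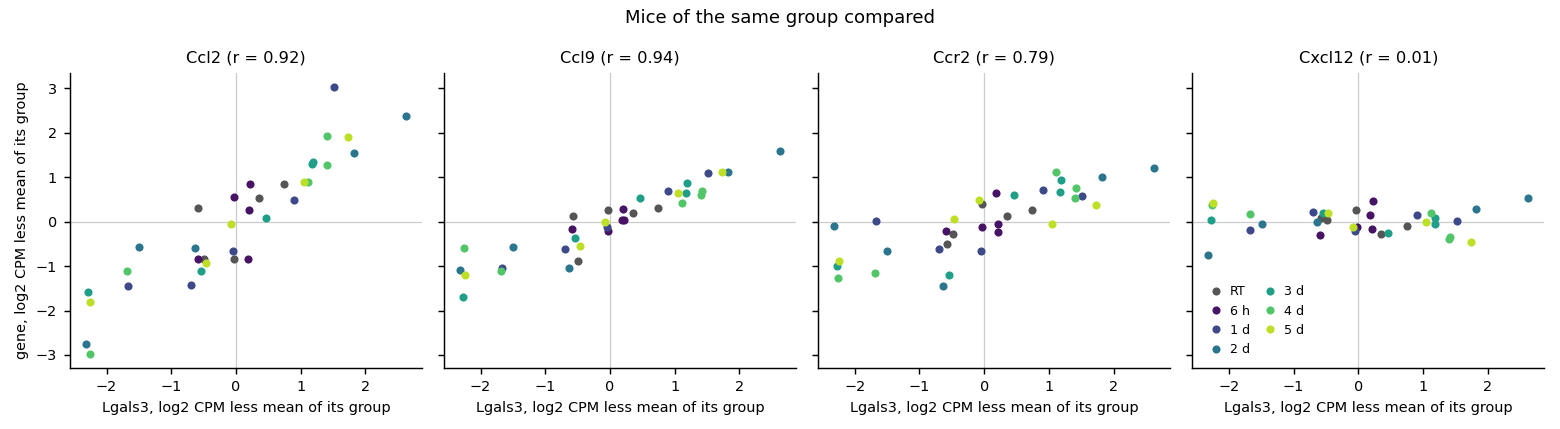
Ccl2, Ccl9, Ccr2 and Cxcl12 against Lgals3, both as log2 CPM less the mean of the mouse's own group, with 1 point per mouse coloured by time in the cold. Ccl9 and Ccl2 line up with Lgals3 (r = 0.94 and 0.92), Ccr2 does so more loosely (0.79), and Cxcl12 does not (0.01).

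The values with Top2a were lower in each member but Cxcl12 and Ccl11, at r = 0.83 for Ccl6, 0.71 for Ccl9, 0.68 for Ccl2, 0.66 for Ccl7, 0.57 for Ccr2 and 0.44 for Ccl8 (adjusted permutation p from 4e-05 to 0.0138). Spearman's rho was 0.78, 0.69, 0.63, 0.63, 0.57 and 0.42. Without the 2 mice most extreme in the member itself, r was 0.77, 0.68, 0.74, 0.75, 0.52 and 0.30. Csf1 missed the threshold narrowly (r = 0.45, rho = 0.40, adjusted permutation p = 0.0501), and it passed with a variance stabilizing transformation (r = 0.49), with library size only (0.57) and in the 20 mice of 2 to 5 days (0.69), at adjusted permutation p of 0.0328, 0.00964 and 0.0192. Ccl11 (r = 0.34) and Cxcl12 (r = 0.19) missed it as well, although Ccl11 passed with library size only (r = 0.49, adjusted permutation p = 0.00964). Among the members themselves, 45 pairs were compared in the same way, a choice made after other results had been seen. The highest values were 0.90 for Ccl7 with Ccl9 (rho = 0.92), 0.89 for Ccl6 with Ccl9 and 0.88 for Ccl2 with Ccl7 (rho = 0.87), and Csf1 was closest to Ccl2 (0.80, rho = 0.72). Ccl11 and Cxcl12 ran against each other (r = -0.40, rho = -0.43, adjusted permutation p = 0.0422, and r = -0.35 when the 2 mice of most extreme Ccl11 were left out). All points share the libraries, their depth and their scaling.

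The same mice were high or low in most of these genes. After 2 days, mouse 1 had the highest CPM of its group for 8 of the 10 members and 266 CPM of Lgals3, while mouse 4 alone had the lowest for 7 and 8.21 CPM of Lgals3. After 5 days mouse 5 was highest for 7 members (Lgals3 at 200 CPM) and mouse 3 lowest for 6 (12.3 CPM). After 3 days mouse 2 alone was lowest for 5 members and lowest in Lgals3 (20.5 CPM), and after 4 days mouse 4 was lowest for 5 (11.5 CPM). Mouse 5 of the 1 day group, with 37.7 CPM of Lgals3, was highest for 4. The number of members called higher from 1 to 3 days depended on single mice. With all mice it was 3. Without this mouse it was 7, since Ccl2 (log2 3.55), Ccl7 (5.05), Ccl9 (1.52) and Csf1 (1.39) joined (adjusted p 0.00355, 0.00476, 0.0316 and 0.00081, edgeR). Without mouse 2 of the 3 day group it was 5, with Ccl9 (log2 1.42, adjusted p = 0.0156) and Csf1 (1.02, adjusted p = 0.042) added.

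Over all 35 mice and 12225 genes with at least 10 reads in at least 5 libraries, the genes most like each member in log2 CPM were found by Pearson's r, as a description. Those nearest to Ccl2 were Lgals3 (0.92), Plek (0.91) and Ccl7 (0.91), and those nearest to Ccl7 were Plek (0.93), Lgals3 (0.92) and Ccl2 (0.91). Ccl6 and Ccl9 were each other's closest gene (0.92). Ccr2 lay nearest to Ctss (0.89), Ptafr (0.88) and Irf8 (0.88), all genes of myeloid cells, and Csf1 nearest to Ccl2 (0.83), Emp3 (0.80) and Capg (0.79). Ccl8 stood apart from its chromosomal neighbours, with Ifi44 (0.88), Cmpk2 (0.88) and Lgals9 (0.87) as its nearest genes, the first and second of which are induced by interferon. Cxcl12 was closest to Pctp (0.83) and Ccl11 to Brd2 (0.77), with values within groups of 0.52 and 0.61.

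Promoter windows of RefSeq were matched for 7 of the 10 members (Ccl6, Ccl8, Ccl9, Ccr2, Csf1, Cxcl1 and Cxcl12), and the 250 bases before each start were searched on both strands. The NF-kB consensus, the site of the factor best known for driving chemokine genes, occurred in 3 of them, beside 3.9% of 32851 promoters of that length. It is shown in capitals within 30 bases of the gene's strand, for Cxcl1 (chr5:90891164-90891193, starting 71 bases before the gene's start), Csf1 (chr3:107760604-107760633, 154 bases before) and Ccl9 (chr11:83578652-83578681, 35 bases before).
Cxcl1: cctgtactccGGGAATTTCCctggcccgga
Csf1: gggccttgagGGAAAGTCCCtaggggccag
Ccl9: tttgaactttGGAAAGCCCCaagtcacctt
The matches of Csf1 and Ccl9 lie on the strand opposite to the one printed. In Cxcl1 the match is on the printed strand, and a second match on the other strand starts 1 base later. The cAMP response element (TGACGTCA), through which adrenergic signals act on transcription, was in none of the 7 windows and in 1.55% of all, and its shorter core (TGACG), which the longer form contains, was in those of Cxcl1 and Cxcl12 and in 17.8% of all. A match of letters is not a bound site, and its absence from these windows says nothing about the factor.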

How the data were processed

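RNA of whole iBAT was sequenced from 35 mice, 5 per group. According to the paper and the submitters' processing notes, QuantSeq reads were aligned to GRCm38 with STAR 2.6.1d and counted per gene with HTSeq 0.11.2. The authors deposited whole-number counts without normalization.

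Each duration was compared with the controls, and 1 day with 6 hours, 3 days with 1 day and 5 days with 3 days, in separate fits with edgeR 4.0.16 in R 4.3.3 (TMM, filterByExpr, quasi-likelihood test, no covariates). Members below the filter were compared by exact permutation of log2 CPM (prior count 2). Correlations used numpy 2.4.6 and scipy 1.17.1. Scripts were tested on simulated data. Depth was 3846016 to 6047247 counts per mouse, which limits genes of a few reads, and floors cover counting error only.

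All 10 members and the receptors and scavengers of their ligands were named whatever their result, except 1 that is not reported here. Of other pathway genes, at most 12 were named, those with the largest change among genes called without overlap and with a mean of at least 10 counts in a group. The members and gene lists were chosen with earlier results of these data known. Alternatives were DESeq2 1.42.0, its size factors in edgeR, library size only, no filter, all groups in one fit, a replicate block, other prior counts, a variance stabilizing transformation and leaving out each mouse. Positions are from GENCODE M21 and promoters from RefSeq, both on GRCm38.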

Additional observations from a re-analysis of the deposited data

Results flagged for a closer look

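Of 70 sets of 5 mice (10 genes in 7 groups), 5 held a mouse far from the others by Dixon's test, where chance gives about 1 in 20, or 3.5. Ccl6 was at 27.9 CPM in mouse 2 after 3 days, below the 59.3 to 70.1 CPM of the others. Ccl9 was at 1.33 CPM in control 2, below 3.10 to 3.59. Cxcl1 was at 0.364 CPM in mouse 5 after 6 hours, where the others had no read. Ccr2 was at 6.78 CPM in mouse 1 after 6 hours, above 3.48 to 4.01. Csf1 was at 15.2 CPM in mouse 5 after 1 day, above 4.08 to 5.87.

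Effects of cold differed between durations by a test of the difference itself (edgeR, 5 against 5 mice) in 6 cases. From 6 hours to 1 day Ccl11 differed by -0.90 on the log2 scale, Cxcl12 by 0.99 and Ackr3 by -0.72. From 1 to 3 days Ccl6 differed by 1.43, Ccr2 by 1.98 and Ccl8 by 2.50, the last a gene with too few reads at 1 day that was tested only through its level after 3 days.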

How the results depend on the processing

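Of 503 refits of fold changes under other settings 471 kept their direction and side of the threshold. The members called lower at 6 hours (1, Cxcl12) numbered 2 with library size only, 0 in the fit of all groups, 2 with the replicate block, 0 with DESeq2 and 0 to 1 when single mice were left out. Those called lower at 1 day (1, Ccl11) numbered 2 with library size only, 0 with DESeq2 and 0 to 1 without single mice. Those called higher at 2 days (5) numbered 3 with library size only and 3 to 6 without single mice. Those called higher at 4 days (5) numbered 8 with no filter, and those lower (0) 1 with library size only and 0 to 1 without single mice. Those called lower at 5 days (1, Ccl11) numbered 0 with DESeq2 and 0 to 1 without single mice. From 6 hours to 1 day, those higher (1) numbered 2 with no filter, and those lower (1) 2 with no filter, 2 with the replicate block and 1 to 2 without single mice. From 1 to 3 days those higher (3) numbered 7 with no filter and 3 to 7 without single mice, and from 3 to 5 days those lower (0) numbered 6 with no filter and 0 to 1 without single mice. DESeq2, run without the filter, called 7, 7 and 6 members higher at 2, 4 and 5 days, where edgeR called 5, 5 and 4. The 2 exact calls of Ccl2 numbered 0 with library size only. The causes were not tested.

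Signs turned in differences that were not called. Ccr2 after 5 days was -0.05 and Ccl8 after 1 day -0.18 with library size only, Csf1 from 6 hours to 1 day was -0.03 with the replicate block, Ccl7 after 1 day was -0.01 with a prior count of 0.5, and r of Cxcl12 with Lgals3 was -0.03 in the 20 mice of 2 to 5 days. Without single mice, Csf1 after 1 day ranged from -0.08 to 0.54, Ccr2 from 6 hours to 1 day from -0.23 to 0.17, Csf1 there from -0.41 to 0.22, and, in the exact tests, Ccl7 after 1 day from -0.41 to 0.60, Ccl8 after 1 day from -0.27 to 0.24 and Cxcl1 after 6 hours from -0.23 to 0.05. Same-numbered mice did not deviate together (median r -0.034 to 0.007, against 0.006 for different numbers), so the numbers only name mice. The replicate block also took the call of Csf1 after 2 days (0.79, adjusted p = 0.0999, edgeR). Depth limits Ccl2, Ccl7 and Cxcl1.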
